A study of Mus musculus with 14 samples.

Results

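Binding sites of phosphorylated SMAD1, SMAD5 and SMAD9 (pSMAD1/5/9) were compared between MuSCs that had received BMP6 and control cells. The members were all peaks of both consensus lists, 7339 after BMP6 and 949 for the control group, out of 175565 regions that the 6 lists of the series hold (pSMAD1/5/9, SMAD4 and H3K27ac in both conditions). MuSCs are the resident stem cells of skeletal muscle. They were taken from 9-week-old female mice of the strain C57BL/6N(Tg(Pax7-EGFP)Tajb), in which a Pax7-driven EGFP transgene marks the cells for sorting, so the sort selected cells with an active reporter. Both groups were cultured and kept for 6 h without serum with 200 ng/mL soluble BMPR1A-Fc, a decoy receptor that traps BMPs. The BMP6 group then received 100 ng/mL BMP6 for 1 h and the control group only the solvent, 4 mM HCl with 0.1% BSA, for the same time. CUT&Tag, which uses an antibody to direct the Tn5 transposase to a protein on chromatin, was made from 100000 cells per library with 2 biological replicates per group. The sources used here do not say whether the replicates came from different animals.

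BMPs bind receptor kinases that phosphorylate SMAD1, SMAD5 and SMAD9. These join SMAD4, enter the nucleus and bind GC-rich SMAD sites and SMAD boxes, often next to transcription factors that already occupy the chromatin. In MuSCs the pathway holds back differentiation, in part through the Id genes, whose proteins sequester the partners of the myogenic factors.

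The sorted identity was checked by H3K27ac, a mark of active promoters, within 2 kb of the TSS in control cells. It was listed at 9 of 10 MuSC markers, with Calcr the exception, and at 53.0% of all 21757 protein-coding genes. Of the markers of other cells it was listed at 1 of 5 for endothelium (Tek), 1 of 5 for immune cells (Cd68), 1 of 5 for fibro-adipogenic cells (Dpt) and 2 of 4 for pericytes and smooth muscle (Cspg4 and Abcc9). The counts were the same after BMP6. Pecam1, Cdh5, Ptprc, Pdgfra and Myh11 had no such peak in control cells. The part of other cells in the pSMAD1/5/9 peaks was not tested.

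Peaks that overlapped by at least 1 bp were called shared, and the others BMP6-only or control-only. This gave 6500 BMP6-only peaks, 839 BMP6 peaks that were shared with 804 control peaks, and 145 control-only peaks. The consensus lists were made separately for each condition and no test between conditions was run, and intervals cover only the number of peaks, not the spread between cultures. A peak missing from a list did not pass in both replicates, and the lists do not hold the signal at that place. Signals were compared only as ranks or percentiles within a list, where 100 is the strongest peak.

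Sequences at peak summits are shown first, with 50 bases on either side of the summit, on the plus strand of GRCm39 and with capitals for any match to the 11 motifs that were searched on both strands. Those were the GC-rich SMAD sites GGCGCC and its variant GGAGCC, the SMAD palindrome GTCTAGAC, the SMAD box CAGACA, the E-box forms CAGCTG (bound by myogenic factors), CAGGTG (bound by repressors) and also CACGTG, the AP-1 site (TGACTCA, which reads TGAGTCA on the other strand), the GC box GGGCGG, the ETS site CCGGAA, and the BMP response element. The latter joins GGCGCC, or a variant that differs by 1 letter, to GTCT at a distance of 5 bases and can therefore contain other motifs. Matches of different motifs may overlap. The best-ranked BMP6 peaks near 4 targets of BMP or Notch signaling show how different these sites were. The window of Id1, chr2:152571599-152571699, lay 6516 bp upstream of the TSS, that of Id2, chr12:25148806-25148906, 1574 bp upstream, that of Atoh8, chr6:72193833-72193933, in an intron 18719 bp downstream, and that of Snai1, chr2:167401536-167401636, in intergenic sequence 21473 bp downstream. Only the Id2 peak was shared with control cells.
Id1: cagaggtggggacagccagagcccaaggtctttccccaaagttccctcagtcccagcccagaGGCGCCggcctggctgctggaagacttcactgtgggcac
Id2: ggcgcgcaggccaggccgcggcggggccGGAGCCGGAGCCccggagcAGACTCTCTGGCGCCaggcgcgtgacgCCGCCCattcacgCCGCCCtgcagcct
Atoh8: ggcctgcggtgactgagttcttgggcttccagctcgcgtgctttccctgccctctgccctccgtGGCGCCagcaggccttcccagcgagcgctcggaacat
Snai1: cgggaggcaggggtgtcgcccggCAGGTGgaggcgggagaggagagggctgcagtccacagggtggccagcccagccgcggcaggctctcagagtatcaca
The windows of Id1 and Atoh8 each held 1 GC-rich SMAD site. That of Id2 held a full BMP response element beside 2 copies of GGAGCC and 2 GC boxes, and that of Snai1 only an E-box.

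The 3 strongest shared peaks ranked 1, 2 and 3 after BMP6 and lay 170 bp upstream of the TSS of Skil, a SMAD corepressor (chr3:31148596-31148696), 5958 bp upstream of Cirbp, an RNA-binding protein (chr10:79997604-79997704), and 589 bp upstream of Sync, an intermediate filament protein of muscle (chr4:129180453-129180553). They are shown as the strongest sites listed in both conditions.
Skil: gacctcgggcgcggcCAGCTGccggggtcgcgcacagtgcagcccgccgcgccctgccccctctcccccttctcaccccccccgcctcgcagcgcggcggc
Cirbp: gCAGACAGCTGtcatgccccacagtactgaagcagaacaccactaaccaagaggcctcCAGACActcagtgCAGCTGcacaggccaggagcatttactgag
Sync: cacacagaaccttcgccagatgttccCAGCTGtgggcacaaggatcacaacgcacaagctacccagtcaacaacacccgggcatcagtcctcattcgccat
Each held the E-box CAGCTG, the form bound by myogenic factors such as MYOD1, and none held a GC-rich SMAD site. The window of Cirbp also held SMAD boxes. In 100 bp windows of all shared peaks, CAGCTG was found in 19.5%, GGCGCC in 2.98% and GGAGCC in 15.3%, so these 3 windows do not show a pattern of the class.

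The strongest control-only peaks outside UTRs were nearest to Gm5148 (chr3:37859967-37860067), Gadd45g (chr13:52116617-52116717) and Fermt2 (chr14:45716932-45717032), and 2 of these 3 windows held none of the motifs.
Gm5148: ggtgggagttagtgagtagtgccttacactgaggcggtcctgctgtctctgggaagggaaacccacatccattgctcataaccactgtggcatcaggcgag
Gadd45g: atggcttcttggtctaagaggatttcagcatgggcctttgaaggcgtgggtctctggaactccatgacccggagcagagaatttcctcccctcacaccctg
Fermt2: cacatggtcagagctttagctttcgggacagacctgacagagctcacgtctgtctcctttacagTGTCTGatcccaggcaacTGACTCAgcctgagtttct
The window of Fermt2, which encodes the integrin activator kindlin-2, held a SMAD box and an AP-1 site.

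A BMP response element lay within this window in 61 BMP6 peaks. The best-ranked of them, with rank 90, lay at the TSS of Smad6. The next 3 were BMP6-only intergenic peaks with ranks 158, 229 and 249, nearest to Thy1 (chr9:43856935-43857035), Camk1g (chr1:193081172-193081272) and Defb42 (chr14:63292252-63292352).
Thy1: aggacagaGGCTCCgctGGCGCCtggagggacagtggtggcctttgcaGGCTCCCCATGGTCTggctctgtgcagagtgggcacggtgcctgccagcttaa
Camk1g: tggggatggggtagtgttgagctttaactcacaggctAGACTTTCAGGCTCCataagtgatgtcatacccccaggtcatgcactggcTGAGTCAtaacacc
Defb42: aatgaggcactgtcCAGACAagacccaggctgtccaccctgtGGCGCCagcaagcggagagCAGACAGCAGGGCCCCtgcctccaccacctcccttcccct
These windows were picked for the element, so its presence is not a result.

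The strongest control sites were listed after BMP6 as well. All of the 100 strongest control peaks overlapped a BMP6 peak, as did 199 of the 200 strongest and 471 of the 500 strongest. The best-ranked control-only peak, at the TSS of Chchd4, ranked 157 of 949. Of the 94 strongest control peaks 100% of peaks were shared (Wilson 95% interval 96.1 to 100), and of the 95 weakest 54.7% (44.7 to 64.4). In the other direction, 42.4% of the 733 strongest BMP6 peaks were shared (38.9 to 46.0) and 2.04% of the 734 weakest (1.24 to 3.34). Overlap followed strength in both lists, but most of the 733 strongest BMP6 peaks had no control peak.

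**Figure D1:**
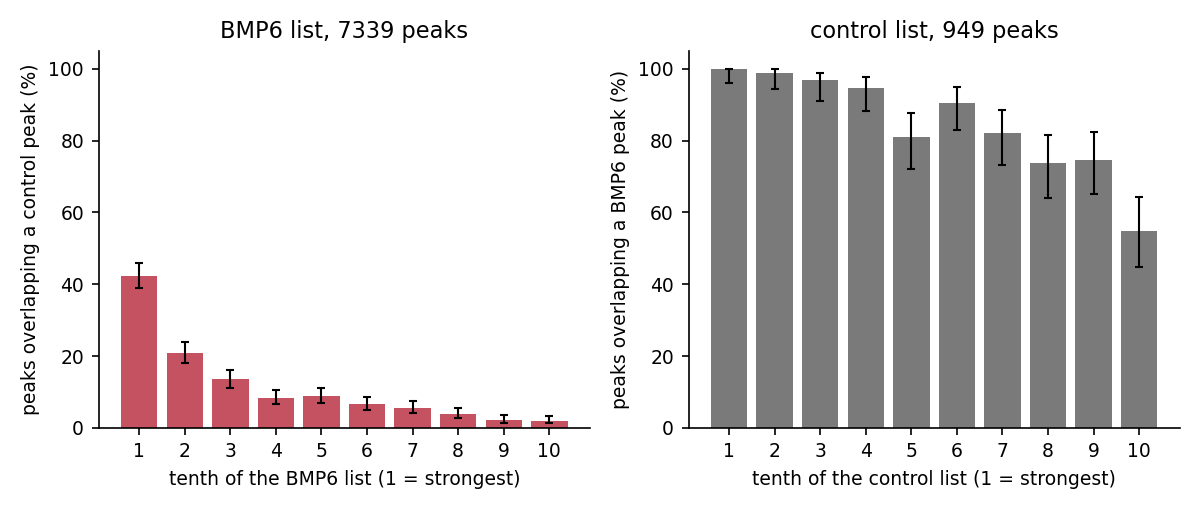
Share of peaks (%) that overlapped a peak of the other condition, by 10 equal parts of the list from strongest (1) to weakest (10), for the BMP6 list on the left and the control list on the right. Bars are shares and error bars Wilson 95% intervals; the share falls from 42.4% to 2.04% on the left and from 100% to 54.7% on the right.

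The classes differed in strength and width. Shared peaks had a median percentile of 84.2 in the BMP6 list (82.2 and 81.8 by either replicate column alone) and BMP6-only peaks 46.0 (46.2 by both columns). Control-only peaks had a median percentile of 22.8 in the control list, with 21.9 and 21.4 by single columns, and shared control peaks 56.0. The median width in the BMP6 list was 795 bp for shared and 561 bp for BMP6-only peaks, and in the control list 720 bp for shared and 600 bp for control-only peaks. Peaks also differed in IDR, an estimate of the share of peaks that do not recur between replicates. It was computed for each list separately, so 1 value need not mean the same replicate agreement in both lists. The IDR was at most 0.01 for 681 of 839 shared BMP6 peaks (81.2%) and 2993 of 6500 BMP6-only peaks (46.0%). In the control list this held for 141 of 804 shared peaks (17.5%) and 0 of 145 control-only peaks. Over these peaks, which had all passed the IDR filter of their list, Spearman's rho between the replicate signals was higher in the control list. It was 0.82 for shared BMP6, 0.67 for BMP6-only, 0.95 for shared control and 0.92 for control-only peaks. Control-only peaks had a median IDR of 0.0403, close to the threshold of 0.05 for entry to the list.

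Over the listed peaks, the replicate signals of the control list lay closer together than those of the BMP6 list. The listed peaks had passed the IDR filter for replicate agreement, which was run on each list separately. The agreement between whole libraries was therefore not compared. The log2 ratio of the signals of both replicates had a 5th to 95th percentile range of -0.01 to 0.59 in the control list and -0.59 to 1.33 in the BMP6 list. Its SD was 0.58 for BMP6-only and 0.56 for shared BMP6 peaks, and 0.15 for control-only and 0.19 for shared control peaks. Peak edges fell on steps of 40 bp in both control replicates, but on 30 bp and 39 bp in the BMP6 replicates, which is the resolution at which edges were set. The part of this in the number of peaks was not tested.

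BMP6-only peaks were mostly far from the few control peaks, and by definition none of them overlapped one. The autosomes held 0.375 control peaks and 2.83 BMP6 peaks per Mb. The distances that such densities alone would give were not computed. The median distance from a BMP6-only summit to the nearest control summit was 346 kb, and 12.9% lay within 20 kb (838 of 6500). Control-only summits were closer to BMP6 summits, with a median of 39.3 kb and 41.4% within 20 kb (60 of 145), beside a BMP6 list that held more peaks. The strongest BMP6-only peak, chr4:139423909-139426560, ranked 9 overall and 12 in each replicate. It lay between genes, 44457 bp from the TSS of Tas1r2. The next lay in an intron of Creb3l1, which encodes a transcription factor of the secretory pathway, with rank 10 overall and 25 and 7 in the replicates. The one after that lay at the promoter of Smad7, the inhibitory SMAD that limits the pathway, with rank 15 overall and 17 and 20 in the replicates. Of the 10 strongest BMP6-only peaks, all overlapped a SMAD4 peak after BMP6, and 9 overlapped one in control cells, the exception being the promoter of Timp1, a protease inhibitor gene.

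For each of the 4 location classes (TSS, exon, intron and intergenic), the interval of the difference between BMP6-only and shared peaks included 0. At a TSS were 33.6% of BMP6-only peaks (32.5 to 34.8, n = 6500), 35.3% of shared peaks (32.1 to 38.6, n = 839) and 31.0% of control-only peaks (24.1 to 39, n = 145). The difference between BMP6-only and shared peaks was -1.63 percentage points, with a Newcombe 95% interval of -5.12 to 1.73. For introns it was -0.61 points (-3.95 to 2.55) and for intergenic sequence 2.70 points (-0.69 to 5.93). Within 2 kb of a TSS, 50.5% of BMP6-only summits and 59.9% of shared summits lay upstream of it, a difference of -9.39 points (-15.3 to -3.20). Over 50 kb from a TSS lay 24.2% and 20.1% of summits, a difference of 4.10 points (1.1 to 6.89), and the median distance to the TSS was 12349 bp for BMP6-only and 9343 bp for shared peaks.

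Motif shares at summits were set beside those of the flanks and compared between the classes. In the 200 bp at the summit, the E-box CAGCTG was found in 31.0% of BMP6-only peaks (29.9 to 32.1) and 32.1% of shared peaks (29.0 to 35.3), against 11% and 12.2% of windows 1 kb to either side. The AP-1 site, bound by FOS and JUN proteins, was found in 15.5% (14.6 to 16.4) and 16% (13.6 to 18.6), against 3.69% and 4.83% in the flanks. The GC box, bound by SP factors, was found in 26.3% and 28.7%, against 6.68% and 8.88%. Between BMP6-only and shared peaks, the interval of the difference included 0 for 9 of the 11 motifs. Only CACGTG (4.38% against 2.86%) and the ETS site (8.06% against 6.08%) had intervals above 0, from 0.08 to 2.59 and from 0.05 to 3.57 points, and neither did so once peaks at a TSS were left out. Then only the GC box differed, with -3.01 points (-6.26 to -0.23). These intervals were not corrected for the number of motifs.

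SMAD motifs were also more common at the summit than beside it. GGCGCC was found in 7.92% of BMP6-only peaks (7.29 to 8.60) and 6.44% of shared peaks (4.97 to 8.30), against 2.19% and 3.4% in the flanks. GGAGCC was found in 25.2% and 25.3%, against 14% and 16.3%. The SMAD box CAGACA was found in 23.2% and 24.9%, against 18.7% in the flanks of both. The complete BMP response element was found in 1.31% of BMP6-only peaks (1.06 to 1.61) and 1.79% of shared peaks (1.09 to 2.93), against 0.41% and 0.48%, and the palindrome GTCTAGAC in 0.52% and 0.48%. The E-box CAGGTG went the other way. This form, preferred by repressors such as SNAI1 and ZEB1, was found in 11.4% of BMP6-only summits (10.7 to 12.2) and 15.5% of their flanks (14.9 to 16.1). The GC content was 57.0% at BMP6-only summits and 48.0% in their flanks, and its part in these shares was not tested.

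**Figure D2:**
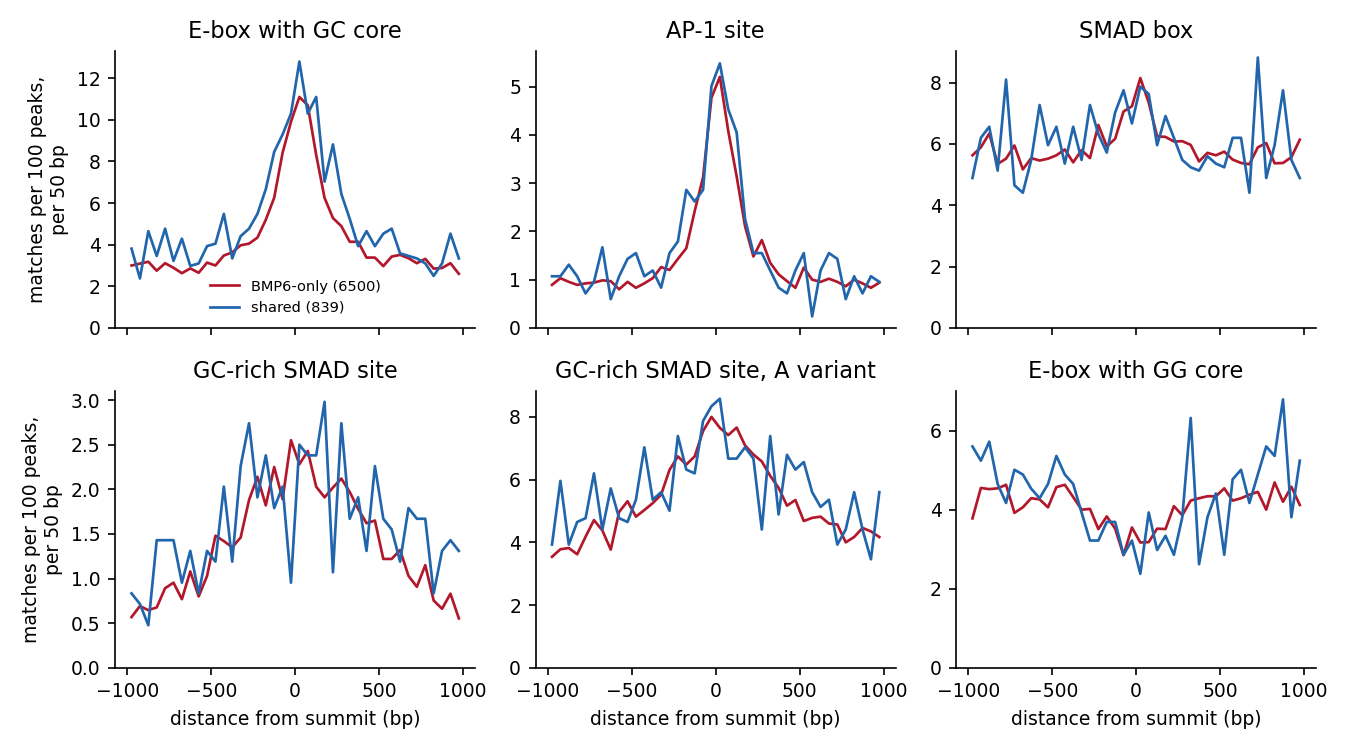
Motif matches per 100 peaks in 50 bp bins against the distance from the summit (bp), for 6500 BMP6-only (red) and 839 shared peaks (blue) of the BMP6 list. The E-box with the GC core is CAGCTG and that with the GG core CAGGTG; the GC-rich SMAD site is GGCGCC, its A variant GGAGCC and the SMAD box CAGACA. In BMP6-only peaks the GC-core E-box reaches 11.1 matches per 100 peaks and the AP-1 site 5.20 in the bin from 0 to 50 bp, and the GG-core E-box is lower there than far from the summit.

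The promoter and the distal sites of the BMP6-only class differed more than the classes did. Away from TSSs (4313 peaks), CAGCTG was found in 38.9% (37.5 to 40.4), the AP-1 site in 20.9% (19.7 to 22.2), CAGACA in 29.1% (27.8 to 30.5) and GGCGCC in 3.71% (3.19 to 4.32). At TSSs (2187 peaks) the shares were 15.3% (13.8 to 16.8), 4.71% (3.90 to 5.68), 11.6% (10.3 to 13.0) and 16.2% (14.7 to 17.8), and the GC box was found in 57.7%. The SMAD box at TSSs was less common than in the flanks, where it was found in 15.7%. By strength, the 733 strongest BMP6 peaks held CAGCTG in 34.8% and the 733 weakest in 24.8%, a difference of 9.96 points (5.28 to 14.6). The BMP response element was found in 2.86% and 0.82%, a difference of 2.05 points (0.68 to 3.59), but in the flanks it was found in 0.75% and 0.14%, and the GC content at the summit was 58.2% and 54.2%. The part of base composition in this difference was not tested. In the 145 control-only peaks, CAGCTG was found in 37.2% (29.8 to 45.3) and the BMP response element in 1 peak.

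Shared sites stood in a different order in each list. Of 851 overlapping pairs, 739 were 1 to 1, and percentiles were set anew among these. The ranks of both conditions were related (Spearman's rho 0.62 across sites, which are not independent replicates). The median absolute difference between conditions, by consensus signals, was 15.2 percentile points. By single replicate columns it was 10.4 between the BMP6 replicates and 6.22 between the control replicates. The IDR filter kept peaks whose ranks agreed between the replicates of a list, and no such filter acted between conditions. These differences are therefore not like measures, and a change of order beyond the replicate spread was not tested. Both BMP6 replicates were above both control replicates at 231 sites (31.3%), and both were below at 237 (32.1%). The same 739 sites were ranked in both lists, so rises and falls balance and their numbers do not show gain or loss.

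**Figure D3:**
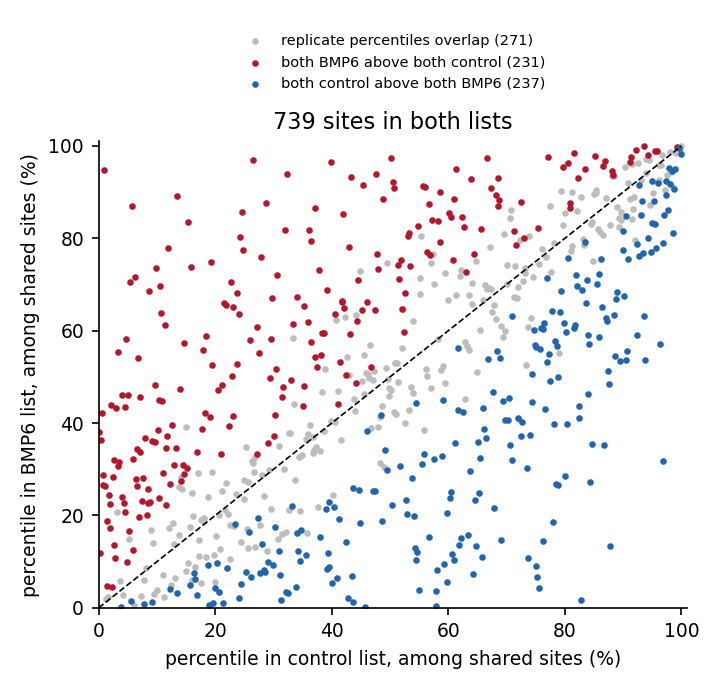
Percentile of each of 739 shared sites in the BMP6 list against its percentile in the control list, both among shared sites (%, 100 strongest) and by the consensus signal. Red and blue points are sites where the percentiles of both replicates of one condition lie above both of the other, 231 and 237 sites, and grey points are the other 271 sites.

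The largest difference toward BMP6 was at an intron of Gse1, which encodes a subunit of a chromatin repressor complex. There the percentiles were 83.1 and 99.1 in the BMP6 replicates and 0.95 and 2.30 in the control replicates. The next was at the promoter of Usp9x, a deubiquitinase gene on chromosome X, with 92 and 73.2 against 3.65 and 7.85. Another site 25164 bp from the TSS of Gins2, a DNA replication gene, had 86.1 and 92.2 against 16.6 and 11.9. Among the 10 such sites were also an intron of Wnt9a, a Wnt ligand gene, with 75.2 and 63.5 against 8.39 and 3.38, and the promoter of Vgll3, a cofactor of TEAD factors, with 71.9 and 73.7 against 7.58 and 14.7. Toward control cells the largest differences were at promoters of Clcn5, a chloride channel gene, with 1.35 and 6.22 against 82.0 and 84.2, and of Acot9, a mitochondrial thioesterase gene, with 21.5 and 5.14 against 83.1 and 92.3. Of these 10 sites, 3 were on chromosome X (Clcn5, Acot9 and C1galt1c1), as was 1 of the 10 toward BMP6 and 15 of all 739 pairs (2.03%). All 20 sites were chosen for this difference, which is given as a description.

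At the 739 pairs, BMP6 peaks had a median width of 807 bp and control peaks 720 bp, and the BMP6 peak was the wider at 457 (61.8%). The consensus summits of both conditions lay a median of 83.0 bp apart. The summits of the replicates within a list lay 112 bp apart after BMP6 and 108 bp apart in control cells. Single replicates of different conditions lay 131 to 156 bp apart, more than replicates of the same condition. Replicate peaks had been matched by the IDR merge within a list, and conditions only by an overlap of at least 1 bp. These distances are therefore not like measures either, and a shift of summits was not tested. Grid steps of 30 to 40 bp enter all of these distances.

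SMAD4 peaks were listed at more of the shared than of the BMP6-only peaks in both conditions. After BMP6, 70.7% of BMP6-only peaks (69.6 to 71.8) and 93% of shared peaks (91.0 to 94.5) overlapped a SMAD4 peak. In control cells, a SMAD4 peak was listed at 53.3% of BMP6-only (52.1 to 54.5) and 87.8% of shared peaks (85.5 to 89.9). Strength moved with these shares. Among the 2446 strongest BMP6 peaks the SMAD4 share after BMP6 was 93.1% for BMP6-only (91.9 to 94.2, n = 1854) and 98.5% for shared peaks (97.1 to 99.2, n = 592), and in control cells 83.1% (81.3 to 84.7) and 93.8% (91.5 to 95.4). In the weakest 2447 peaks it was 49.7% (47.7 to 51.7, n = 2370) and 77.9% (67.5 to 85.7, n = 77) after BMP6, and 31.1% (29.3 to 33.0) and 68.8% (57.8 to 78.1) in control cells. Of the control-only peaks, 59.3% overlapped a SMAD4 peak after BMP6 (51.2 to 67.0) and 58.6% in control cells (50.5 to 66.3). H3K27ac was already listed in control cells at 97.2% of BMP6-only peaks (96.8 to 97.6) and at all 839 shared peaks.

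Genes were linked to peaks within 20 kb of the gene body, so a peak can lie outside the gene and can count for several genes. A BMP6 peak was linked to 6322 of 21757 protein-coding genes (29.1%), a control peak to 1299 (5.97%), a BMP6 peak without a control peak to 5110 (23.5%) and a control peak without a BMP6 peak to 87 (0.400%). Of 1212 genes with peaks in both conditions, 800 had more BMP6 peaks. Genes with more peaks were longer, with a median of 38.3 kb for those with 5 or more BMP6 peaks (226 genes, 1.04%) and 14.9 kb for those with none.

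**Figure D4:**
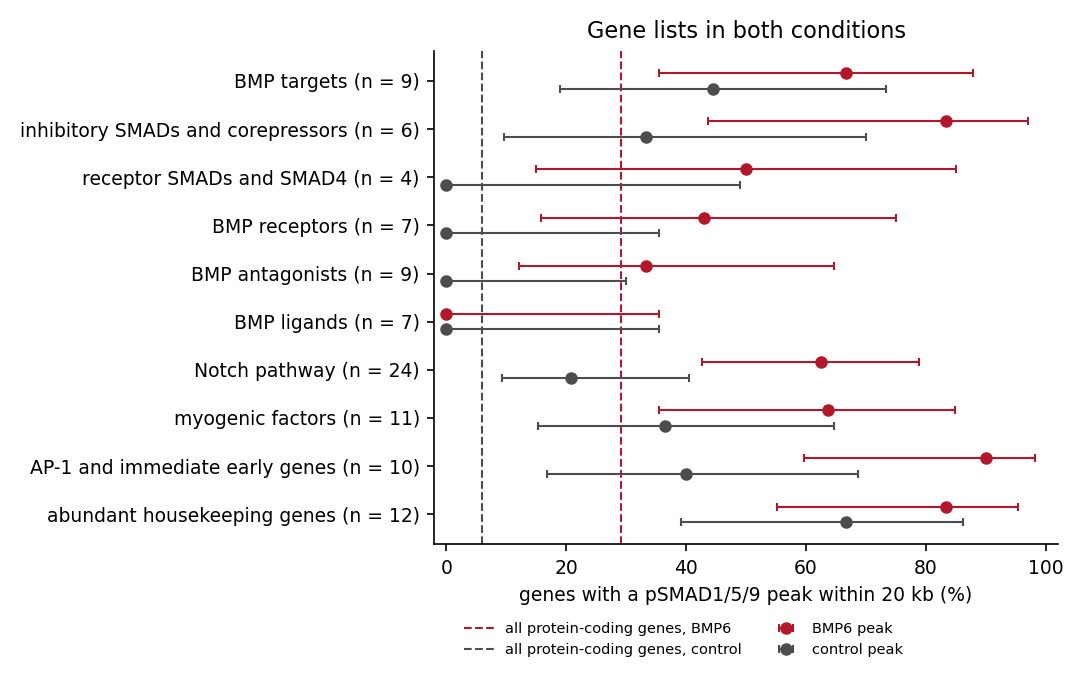
Share of the genes of each list (%) with a pSMAD1/5/9 peak within 20 kb after BMP6 (red) and in control cells (grey), with Wilson 95% intervals; dashed lines mark all protein-coding genes (29.1% and 5.97%). Housekeeping genes lie above the lines in both conditions, and no BMP ligand gene has a peak.

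Of 9 BMP target genes, 6 had a BMP6 peak (66.7%, beside 29.1% of all genes) and 4 of these a control peak (44.4%, beside 5.97%). Id1 had 5 BMP6 peaks and none in control cells, and its best peak was at percentiles 96.2 and 98.1 in the replicates. Id3 had 6 against 1, with the best at 98.4 and 95.7, and its control peak at 65.1 of the control list overlapped a BMP6 peak. Id2 had 2 against 1, and Id4 had 1 weak BMP6 peak at its TSS (percentiles 4.8 and 17.9). Atoh8, a helix-loop-helix factor, had 9 against 1, with the best at 99.0 and 99.8. Dlx2, a homeobox gene, had 1 in each condition, at 98.2 and 99.8 after BMP6. Msx1, Msx2 and Dlx3 had none.

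Of the inhibitory SMADs, ubiquitin ligases and corepressors, 5 of 6 had a BMP6 peak (83.3%, beside 29.1% of all genes) and 2 a control peak (33.3%, beside 5.97%). Smad7 had 5 BMP6 peaks, with the best at percentiles 99.8 and 99.7, and Smad6 had 3, with the best at 99.5 and 95.2. Both block receptor SMADs, and neither had a control peak. The corepressor genes differed from them. Skil had the strongest BMP6 peak and the control peak of rank 2, and Ski had 12 BMP6 and 4 control peaks. Smurf1 had 2 BMP6 peaks and Smurf2 none.

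Of the 4 genes for receptor SMADs and Smad4, which carry the signal, 2 had a BMP6 peak (50%, beside 29.1% of all genes). Smad9 had 1 at percentiles of 12.7 and 63.4 in the replicates, which lie far apart. That peak lay 20112 bp upstream of the Smad9 TSS, at the TSS of another gene. Smad4 had 1 at 3.01 and 14.5, in intergenic sequence 73717 bp from its TSS and past the end of the 67.6 kb gene. Of 7 receptors, 3 had a BMP6 peak (42.9%), Bmpr2 at its TSS (71.4 and 83.3), Acvr1 in an intron (52.0 and 51.4) and Acvrl1 with 3 peaks. Of 9 antagonists, Chrd, Fst and Bambi had 1 each (33.3%). The Bambi peak lay at its TSS. The Chrd peak lay 14304 bp upstream, at the TSS of another gene, and the Fst peak 11567 bp downstream of its TSS in intergenic sequence. None of the 7 ligand genes had a BMP6 peak. No gene of these 4 lists had a control peak, beside 5.97% of all genes.

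Of 24 Notch pathway genes, 15 had a BMP6 peak (62.5%, beside 29.1% of all genes) and 5 a control peak (20.8%, beside 5.97%). Among the effectors, which are repressors of the Hes and Hey families, Hes1 had 3 BMP6 peaks (best at 94.7 and 95), Heyl 4 (96.3 and 98.8), Hey1 1 (80.9 and 90.1) and Hes7 2, all without a control peak within 20 kb, and Hes6 had 4 against 1. Farther out, shared sites had Hes1 as the nearest gene. The paper reports increased binding at Hes1 and Hey1 by eye, but its differential binding analysis did not call these regions. A missing control peak here is therefore not a called difference. Of the receptors, Notch1 had 2 against 1, Notch2 2 against 1, Notch3 4 against 2 and Notch4 1 against 0. The Notch4 peak lay 39689 bp from its TSS, past the end of the 24.3 kb gene and at the TSS of another gene. The best Notch1 peak also lay at the TSS of another gene, 58445 bp from that of Notch1. Rbpj, the DNA-binding partner of the cleaved receptor, had 1 BMP6 peak 803 bp upstream of its TSS at 95.7 and 97.5. Of the glycosyltransferases that modify the receptors, Lfng had 3 peaks, the best at its TSS with 47.9 and 71.1, and Mfng 1. Of the ligands, only Jag2 had peaks, 3 against 1, the best of them 8218 bp upstream of its TSS.

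Of 11 myogenic factors, 7 had a BMP6 peak (63.6%, beside 29.1% of all genes) and 4 a control peak (36.4%, beside 5.97%). Pax7, which marks MuSCs, had 15 BMP6 and 8 control peaks, and its best BMP6 peak lay at the TSS with percentiles of 99.7 and 97.8. Myod1 and Myog, which drive differentiation, each had 4 against 1. Mef2d had 4 BMP6 peaks and no control peak. Of 10 AP-1 and immediate early genes, 9 had a BMP6 peak (90.0%, beside 29.1% of all genes). Among them were Fos with 3 and Egr1 with 1, which had no control peak, and Junb with 6 against 1.

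Abundant housekeeping genes were set beside these lists. Of 12, 10 had a BMP6 peak and 8 a control peak, at or above the shares of the BMP and Notch lists. Gapdh had 10 against 4, with the best BMP6 peak at percentiles of 99.6 and 99.2. The summit of that peak lay 4345 bp downstream of the TSS, past the end of the 3.92 kb gene. Only 2 of the 10 peaks lay within 2 kb of this TSS. Other best peaks lay near the TSS, as for Eno1 (315 bp), or far from it, as for Tpi1 (15138 bp). The best peak per gene had a median percentile of 59.2 over all genes with a BMP6 peak. It was 97.6 for BMP targets, 98.8 for inhibitory SMADs and corepressors, 85.7 for Notch genes and 86.3 for myogenic factors. For AP-1 genes it was 93.6, for housekeeping genes 94.6 and for BMP receptors 78.1. Below the value of all genes were BMP antagonists with 48.7 and receptor SMADs and Smad4 with 21.5. In control cells, housekeeping genes had the highest share with a peak of the 10 lists, 66.7% (39.1 to 86.2).

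The most BMP6 peaks were linked to Zmiz1, a coregulator gene of 208 kb, with 16 against 2 in control cells, followed by Pax7. Runx1, a transcription factor gene, had 13 and no control peak within 20 kb, though shared sites farther out had Runx1 as the nearest gene. Ctif and Agap1 had 11 and 10 without a control peak within 20 kb. Lmna, which encodes the nuclear lamins A and C, had 11 against 4 over a gene of 22.5 kb. Its best peak ranked 7 after BMP6 and 6 in control cells. Of the 10 genes with the most peaks, Lmna was the shortest.

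Peaks on chromosome X stood apart. The ratio of BMP6 to control peaks was 7.54 over the autosomes (95% interval for counting 7.04 to 8.09) and ran from 6.28 on chromosome 1 to 10.9 on chromosome 11. On chromosome X it was 14.7 (9.81 to 23.0, 368 against 25). Peaks there were narrower in every list, with a median of 273 bp against 588 bp on the autosomes after BMP6, and 440 bp against 720 bp in control cells. The X peaks held 96 without H3K27ac. These had a median width of 162 bp, a median percentile of 2.96 and a GC content of 42.0%, and 0 of 96 overlapped a control peak or a SMAD4 peak after BMP6. The 36 autosomal peaks without H3K27ac were also weak, with a median percentile of 15.7, and 0 overlapped a control peak. Their median width was 429 bp and their GC content 53.7%, and 7 overlapped a SMAD4 peak after BMP6. The 272 X peaks with H3K27ac had a median percentile of 47.5 and a GC content of 55.4%. These values were near the 50.8 and 57.3% of all autosomal peaks. In width and SMAD4 overlap they differed more from the autosomal peaks. Their median width was 320 bp against 588 bp, and 123 (45.2%) overlapped a SMAD4 peak after BMP6, against 75.3% of autosomal peaks. With only peaks that had H3K27ac, the ratio on chromosome X was 11.8 (7.72 to 19).

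**Figure D5:**
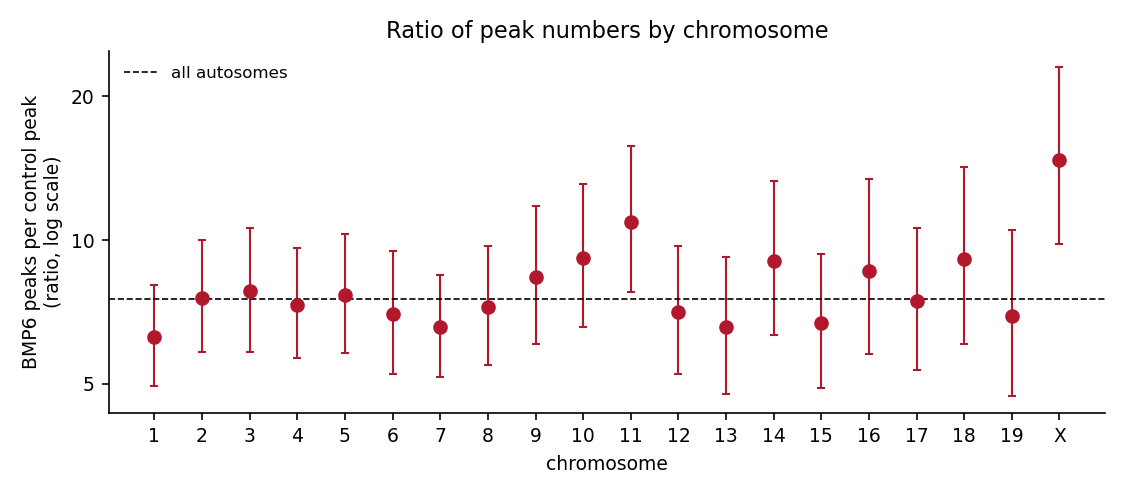
Number of BMP6 peaks per control peak on each chromosome (ratio, log scale), with 95% intervals for counting; the dashed line is the ratio over all autosomes, 7.54. Chromosome X lies highest at 14.7 and chromosome 1 lowest at 6.28.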

How the data were processed

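Per the methods, libraries of an antibody were reduced to the same number of reads before alignment to GRCm39 with Bowtie2 2.5.4. Per the submitters' notes, SAMtools 1.21 and bedtools 2.31.1 were used as well. JAMM gave peaks per replicate, which the authors merged to 1 list per condition by IDR (threshold 0.05) on the signal ranking. The deposited signals are a score without a fixed unit, and the authors' lists give the IDR as −log10. The lists hold no read counts, and the reads behind a single peak are unknown. The replicate columns carry no number.

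Overlaps of at least 1 bp, locations (TSS within 2 kb, then exon, intron, intergenic) and genes within 20 kb were computed in Python 3.11.15 with pandas 2.3.3 from GENCODE vM39 canonical transcripts. Motifs were counted in 200 bp windows read with pysam 0.24.0. Shares have Wilson and differences Newcombe 95% intervals (SciPy 1.17.1). Ratios have exact binomial intervals. Procedures were tested on simulated data. No test between conditions was run, since the lists were made separately and signals were compared only as ranks. Named genes were those of the 10 gene lists, those nearest to the 10 strongest peaks per class, the 10 with most BMP6 peaks and the 10 shared sites per direction with the largest percentile difference. Members and lists were chosen with earlier results of these data known. The windows with a BMP response element were chosen after the values were seen. Alternatives covered the IDR, the overlap, the TSS and gene regions, the windows, single replicate columns and autosomes only. A marker list and a gene that the rule named are not reported here.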

Additional observations from a re-analysis of the deposited data

How the results depend on the processing

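No paired analysis was possible because the replicate columns of the consensus lists carry no replicate number. No read counts were given, so a weak peak cannot be told apart from one just under the threshold.

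At an IDR of at most 0.01, the ratio of BMP6 to control peaks was 26.1, the shared share 3.86% of BMP6 and 95.7% of control peaks, the median percentile of shared peaks 94.1 and the CAGCTG share of BMP6-only peaks 32.8%, and none of the 145 control-only peaks of the full lists passed, so they gave no motif share. With 50% of both peaks required, shared shares were 8.72% and 67.4%, the median percentile of control-only peaks 33.1, the summit distance 83.0 bp (95 bp with all 851 pairs), and the overlap with SMAD4 after BMP6 and in control cells 54.7% and 40.4% for BMP6-only, 75.6% and 73.9% for shared and 48.3% and 43.4% for control-only peaks. With single replicate columns the summit distance over all pairs was 147 to 160 bp, the median percentile of shared peaks 81.8 to 82.2 and that of control-only peaks 21.4 to 21.9. With the summit in the other list's peak, 10.7% of BMP6 peaks were shared. TSS shares of BMP6-only and shared peaks were 30.9% and 31.7% within 1 kb, and 37.9% and 41.2% with all basic transcripts. CAGCTG shares were 17.9%, 19.5% and 22.8% (BMP6-only, shared, control-only) in 100 bp windows, and 38.9% and 40.5% for BMP6-only and shared peaks away from TSSs. On autosomes only, BMP6-only peaks overlapped SMAD4 at 73.0% and 55.1% and H3K27ac at 99.4% and 98.7% (after BMP6 and in control cells), and control-only peaks H3K27ac after BMP6 at 100%. Genes with a BMP6 peak and no control peak numbered 2149 at promoters. Chosen after seeing the data, a BMP6 list as short as the control list gave 39.4% shared and 549 such genes.

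For the other motifs, 33 of 80 values under the alternatives stayed within their 95% intervals.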
